A study of Mus musculus with 6 samples.

Results

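The Hox, Fox and Sox genes are 3 families of developmental transcription factors, and their transcripts were followed here through graded induction of the 4 reprogramming factors Oct4, Sox2, Klf4 and c-Myc (OSKM) in mouse small intestinal organoids. Members were taken by symbol from the 55416 Ensembl gene IDs of the deposited tables: every HoxA, HoxB, HoxC or HoxD gene, every Fox gene and every numbered Sox gene, except Sox2, Sox9 and Foxm1. The symbol patterns matched 102 IDs, and 99 remained without those 3 genes, of which 39 were Hox, 43 Fox and 17 Sox. At least 1 read in at least 1 library was counted for 75 of the 99 (26 Hox, 33 Fox and 16 Sox), and 37 had enough reads to be tested (7 Hox, 22 Fox and 8 Sox). Only 21 of the 99 reached 1 TPM (a read share corrected for transcript length, on a per-million scale) in the mean of a group, and those were 15 Fox genes, 5 Sox genes and Hoxa9.

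Organoids are self-renewing epithelial structures grown from intestinal crypts in a gel. All 6 libraries came from small intestinal organoids of mice aged 4 to 8 weeks that carried Rosa26-rtTA Tg/Tg and also Col1A1-TetO-OSKM Tg/Tg, in which a doxycycline-dependent transactivator drives the 4-factor cassette, and the control organoids carried both transgenes too. Organoids were grown in IntestiCult medium and left without doxycycline (control), or kept for 3 days with doxycycline at 0.1 µg/ml or 0.5 µg/ml, and each group has 2 libraries. The replicates are described as biological, but the labels do not say whether they came from separate mice, organoid lines or cultures, so p-values measure the spread between these libraries only. No group without the transgenes was analysed here, so an effect of doxycycline itself and an effect of the 4 factors cannot be told apart.

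Hox genes lie in 4 clusters and give cells their position along the head-to-tail axis, and in the gut they are known mainly from the mesenchyme, with weaker expression in the epithelium. Fox proteins share a winged-helix DNA-binding domain, and the FoxA proteins among them open closed chromatin in the endoderm and its derived epithelia. Sox proteins bind the minor groove of DNA through a domain like that of Sry, and are sorted into lettered groups by the sequence of that domain. Sox2, which the cassette supplies, is a SoxB1 protein and pairs with Oct4 on composite sites in pluripotent cells.

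Total expected counts ran from 45289760 to 72547738 per library, and the 0.1 µg/ml replicate 1 library was the deepest. Levels are given as CPM (counts on a per-million scale, after scaling by edgeR's TMM factors) for 1 gene across libraries, and as TPM between genes. A count of 3 corresponded to 0.0414 to 0.0687 CPM, which is the highest level that a count of 0 allows, and such limits and the intervals given for ratios cover counting error only. The epithelial label was met by its 7 fixed markers, all of which were tested. Their summed level was 3290 to 3293 TPM in control, 3752 to 3805 at 0.1 µg/ml and 4595 to 4807 at 0.5 µg/ml. By the test described below, 3 of the 7 were higher and 2 lower than control at 0.1 µg/ml. At 0.5 µg/ml 4 were higher and 3 lower. These were 71.4% and 100% of the 7, where 34.6% and 67.5% of all tested genes passed. Sox2 stood at 0.210 ± 0.154 CPM (SD, n = 2) in control, 84.8 ± 2.15 at 0.1 µg/ml and 309 ± 22.3 at 0.5 µg/ml, in the order of the doses.

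Of the 37 tested members, 9 were higher and 8 lower at 0.1 µg/ml than in control, by edgeR's quasi-likelihood test at a Benjamini-Hochberg adjusted p under 0.05 over all 16975 tested genes. At that dose 34.6% of all tested genes passed, 20.8% higher and 13.8% lower, against 45.9% of the tested members. At 0.5 µg/ml, 18 members were higher and 11 lower than control, or 78.4% of those tested, where 67.5% of all tested genes passed, 34.4% higher and 33.1% lower. Between the doses 13 members were higher at 0.5 than at 0.1 µg/ml and 8 were lower, or 56.8%, beside 58.9% of all tested genes, 29.8% higher and 29.1% lower. The share of members called thus lay near the background between the doses and somewhat above it against control, and no test of that difference was made.

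The tested members' median absolute log2 fold change was 0.40 at 0.1 µg/ml and 1.14 at 0.5 µg/ml, against 0.20 and 0.49 over all tested genes. The signed median was 0.17 at 0.1 µg/ml and 0.22 at 0.5 µg/ml, against 0.02 and -0.00 over all tested genes. At 0.5 µg/ml, 11 members were at least 2-fold higher and 8 at least 2-fold lower on the fitted scale, where 27.1% of all tested genes had moved that far in either direction. A gene passes the low-count filter if it is well counted in 1 group alone, so members seen only after induction could enter the test only by differing. Of the 7 tested Hox genes, 3 passed at 0.5 µg/ml, all of them lower. Of the 22 Fox genes 13 were higher and 5 lower, and of the 8 Sox genes 5 were higher and 3 lower. The called shares were 42.9% of Hox, 81.8% of Fox and 100% of Sox genes, beside 67.5% of all tested genes. In every member called, in all 3 comparisons, the 2 libraries of one group lay wholly above or below the 2 of the other. The calls rest on these same values, and the share of all called genes so separated was not counted. This is therefore no separate support for the calls.

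**Figure D1:**
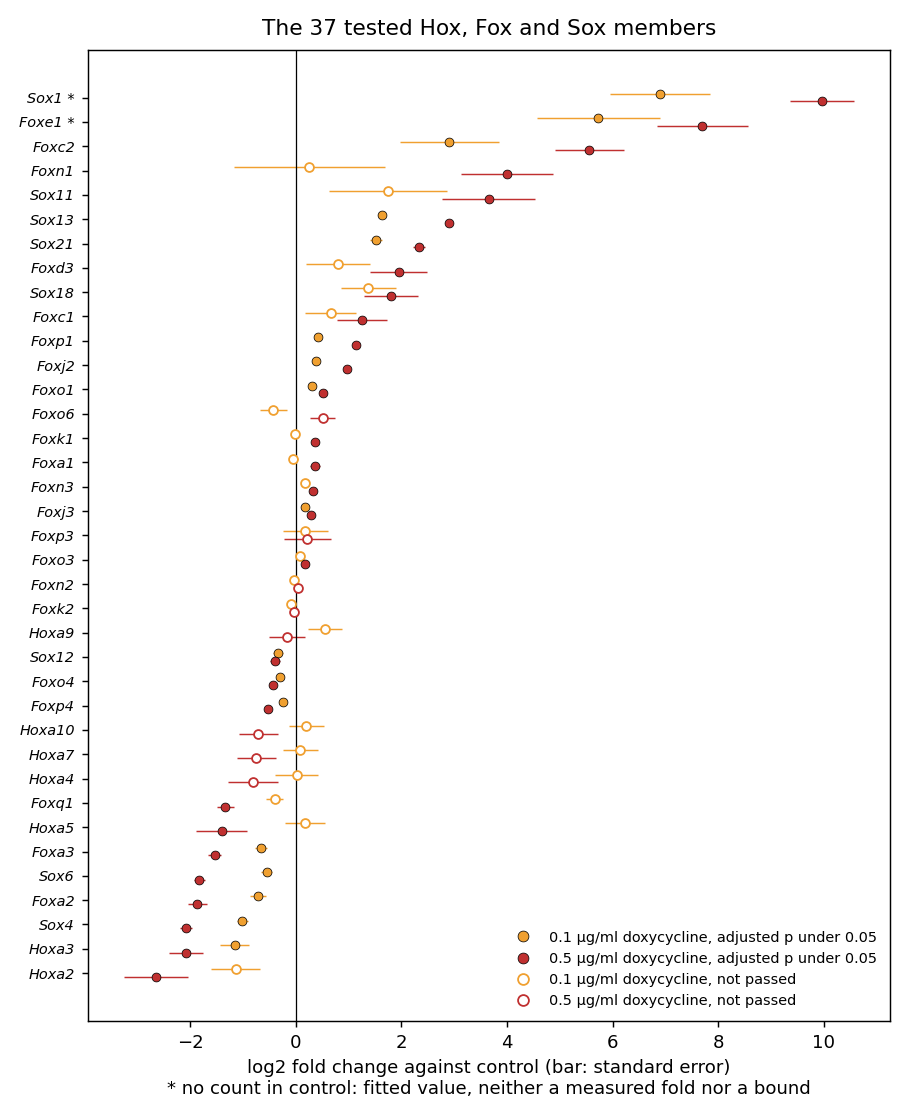
Log2 fold change against control of each of the 37 tested members at 0.1 µg/ml (orange) and 0.5 µg/ml doxycycline (red), with standard error bars, and filled points where the adjusted p was under 0.05. Members are ordered by their change at 0.5 µg/ml, from Sox1 at the top to Hoxa2 at the bottom; an asterisk marks Sox1 and Foxe1, which had no count in control and whose plotted value is neither a measured fold nor a bound.

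In every group the highest level of a member was that of a FoxP gene. In control, Foxp4 stood at 53.2 TPM, Sox4 at 32.9, Foxk2 at 19.3, Foxp1 at 18.7 and Foxa1 at 17.1 (means of 2 libraries). At 0.5 µg/ml the order was Foxp1 at 37.4 TPM, Foxp4 at 35.3, Sox13 at 22.4, Foxa1 at 20.7 and Foxk2 at 17.2. Foxp1 and Foxp4 thus changed places at the top, Sox13 entered the first 5 and Sox4 dropped out of them. Summed over the members of each family, Fox genes made up 202 ± 2.24 TPM (SD, n = 2) in control, 192 ± 3.41 at 0.1 µg/ml and 202 ± 2.45 at 0.5 µg/ml. The Sox sum was 50.3 ± 4.59, 40.9 ± 2.71 and 47.0 ± 0.891 TPM in the same order, and the Hox sum 3.10 ± 0.0778, 3.28 ± 0.728 and 2.11 ± 0.820 TPM. These Fox and Sox sums, which leave out Sox2, Sox9 and Foxm1, thus differed between groups by far less than single members such as Sox4 and Sox13. The 3 genes left out summed to 36.0 ± 1.82 TPM in control, 79.4 ± 4.10 at 0.1 µg/ml and 201 ± 17.6 at 0.5 µg/ml. That rise was of Sox2, which the cassette supplies, while Sox9 and Foxm1 were lower than control at both doses. All 3 passed at each dose, where 34.6% of all tested genes passed at 0.1 µg/ml and 67.5% at 0.5 µg/ml.

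**Figure D2:**
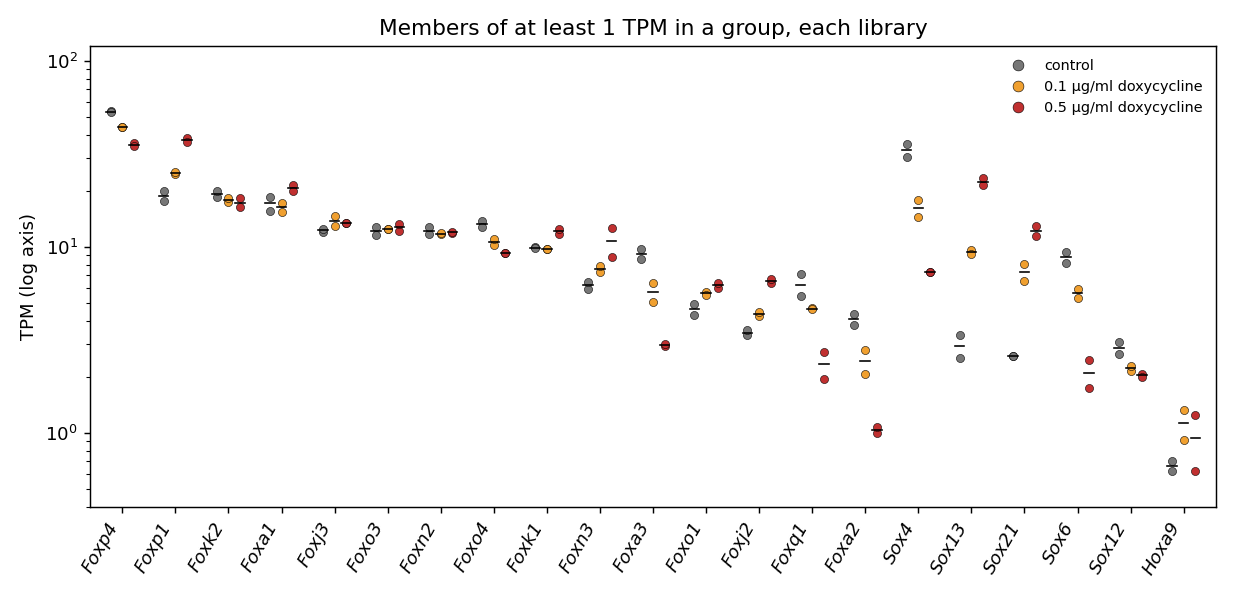
TPM on a log axis in each library (points) with the mean of each group (short lines) for the 21 members that reached 1 TPM in a group. Foxp4, Sox4 and Sox6 step down and Foxp1, Sox13 and Sox21 step up from control (grey) through 0.1 µg/ml (orange) to 0.5 µg/ml (red), and Foxk2 and Foxn2 stay near one level.

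Among the Sox genes Sox1, Sox13 and Sox21 rose and Sox4 and Sox6 fell, each at both doses, and the fewer counts of Sox11 and Sox18 rose at 0.5 µg/ml. The windows around the annotated starts of Sox1, Sox21, Sox13 and Sox4 are printed because these genes moved with dose, 3 of them upwards and Sox4 downwards. Each window runs from 250 bases before to 50 bases after the start, 5′ to 3′ on the gene's strand, from RefSeq on GRCm38.p6 (62 of the 99 members, and 28 of the 37 tested, had such an entry). The windows lie at chr8:12395269-12395568 (plus strand) for Sox1, chr14:118236981-118237280 (minus) for Sox21, chr1:133424163-133424462 (minus) for Sox13 and chr13:28953650-28953949 (minus) for Sox4. Capitals mark the one motif match in them.
Sox1: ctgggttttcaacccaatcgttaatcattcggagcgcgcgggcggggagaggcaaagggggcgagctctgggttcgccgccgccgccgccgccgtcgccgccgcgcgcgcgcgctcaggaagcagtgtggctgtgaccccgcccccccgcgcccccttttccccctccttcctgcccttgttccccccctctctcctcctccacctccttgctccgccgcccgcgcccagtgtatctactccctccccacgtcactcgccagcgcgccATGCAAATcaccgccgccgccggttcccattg
Sox21: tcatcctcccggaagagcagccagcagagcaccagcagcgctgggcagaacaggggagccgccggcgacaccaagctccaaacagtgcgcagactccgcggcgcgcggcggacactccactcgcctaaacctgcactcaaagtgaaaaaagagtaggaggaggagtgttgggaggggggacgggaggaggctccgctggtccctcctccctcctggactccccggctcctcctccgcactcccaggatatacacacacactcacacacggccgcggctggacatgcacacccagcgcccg
Sox13: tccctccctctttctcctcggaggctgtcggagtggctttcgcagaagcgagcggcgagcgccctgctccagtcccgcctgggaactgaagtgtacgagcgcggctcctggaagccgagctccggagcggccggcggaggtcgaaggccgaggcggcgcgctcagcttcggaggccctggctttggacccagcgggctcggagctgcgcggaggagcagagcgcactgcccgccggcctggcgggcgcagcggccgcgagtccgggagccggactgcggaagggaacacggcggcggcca
Sox4: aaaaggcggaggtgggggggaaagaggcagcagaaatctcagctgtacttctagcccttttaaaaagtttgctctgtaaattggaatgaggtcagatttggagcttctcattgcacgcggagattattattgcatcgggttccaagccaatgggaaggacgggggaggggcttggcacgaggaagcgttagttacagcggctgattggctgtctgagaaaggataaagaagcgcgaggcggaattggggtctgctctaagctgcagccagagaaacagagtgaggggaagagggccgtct

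Each window was searched on both strands for the octamer ATGCNAAT bound by Oct4, the SOX hexamers ACAAAG and ACAATG, the KLF motif GGGNGTGG and the E-box CACGTG bound by Myc proteins. The octamer was found in the Sox1 window, starting at base 19 of the transcript, and no other motif was found in the 4 windows, so no matches overlapped. Among all 32851 windows of this length in the table, 3.15% held the octamer, 28.6% a SOX hexamer, 17.6% the KLF motif and 7.15% the E-box. Among the 39 windows of tested members, 2 held the octamer, 14 a SOX hexamer, 8 the KLF motif and 1 the E-box. The windows of Sox1, Sox21 and Sox13 had a GC content of 70.7%, 65.7% and 73.3%, that of Sox4 52.0%, and the median over all windows was 52.7%. A match is a description of the letters in the window and does not show binding.

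Sox1, a SoxB1 gene like Sox2 and known from neural progenitors, had no count in either control library. It had 19 and 15 counts (0.262 and 0.306 CPM) at 0.1 µg/ml and 95 and 133 counts (2.18 and 2.55 CPM) at 0.5 µg/ml. Against the level that 3 counts per library would have given in control, Sox1 was at least 4.71-fold higher at 0.1 µg/ml and at least 39.2-fold higher at 0.5 µg/ml (adjusted p = 6.45e-04 and 8.87e-07, edgeR). Between the doses it rose 8.37-fold, a log2 fold change of 3.07 ± 0.26 (SE; adjusted p = 1.46e-05). The other SoxB1 gene of the set, Sox3, had 0 to 3 counts in each library and was not tested. In bulk RNA, more cells with a transcript and more transcript per cell cannot be told apart, here and in all that follows. With limma on log2(TPM + 1), a scale on which a gene this low hardly moves, the rise of Sox1 at 0.1 µg/ml did not pass (adjusted p = 0.248).

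Sox21, a SoxB2 gene whose protein represses many of the genes that SoxB1 proteins activate, was found in every library. It stood at 8.20 and 7.88 CPM in control, 21.1 and 25.4 CPM at 0.1 µg/ml and 44.0 and 37.3 CPM at 0.5 µg/ml, so that the 3 groups were fully apart. The rise was 2.88-fold at the low dose (log2 fold change 1.53 ± 0.11 SE, adjusted p = 6.53e-06) and 5.05-fold at the high dose (2.34 ± 0.11, adjusted p = 5.41e-08). Sox21 overlaps the antisense gene Gm4675 in the GENCODE M21 annotation, and whether reads were counted by strand is not stated in those sources, so the split of reads between the pair is uncertain. Sox14, the other SoxB2 gene, had 1 to 4 counts in each library.

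The SoxD genes, whose proteins lack an activation domain of their own, moved in opposite directions. Sox13 stood at 6.56 and 7.72 CPM in control, 23.1 and 21.2 CPM at 0.1 µg/ml and 53.4 and 53.7 CPM at 0.5 µg/ml. It rose 3.11-fold at the low dose (log2 fold change 1.64 ± 0.08 SE, adjusted p = 3.98e-07) and 7.5-fold at the high dose (2.91 ± 0.08, adjusted p = 1.16e-09), with no overlap between groups. Sox6, known from cartilage and red blood cell development, stood at 17.6 and 18.7 CPM in control, 13.4 and 11.3 CPM at 0.1 µg/ml and 4.83 and 5.43 CPM at 0.5 µg/ml. Sox6 was 1.46-fold lower at the low dose (log2 fold change -0.55, adjusted p = 0.00207) and 3.53-fold lower at the high dose (-1.82 ± 0.11 SE, adjusted p = 2.92e-07). Sox13 made up 25.0% of the SoxD TPM in control, 62.5% at 0.1 µg/ml and 91.4% at 0.5 µg/ml, while the sum rose from 11.7 ± 0.269 to 14.9 ± 0.750 and 24.5 ± 1.90 TPM (SD, n = 2). The SoxD gene Sox5 had 0 to 7 counts and was not tested.

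Among the SoxC genes, Sox4, known in the mouse intestine from secretory progenitors and tuft cells, was by far the highest. It stood at 144 and 118 CPM in control, 59.1 and 72.2 CPM at 0.1 µg/ml and 31.8 and 30.5 CPM at 0.5 µg/ml. Sox4 fell 2.01-fold at the low dose (log2 fold change -1.0, adjusted p = 6.75e-05) and 4.22-fold at the high dose (-2.08 ± 0.11 SE, adjusted p = 1.21e-07). Sox12 stood at 11.4 and 9.63 CPM in control, 8.19 and 8.54 CPM at 0.1 µg/ml and 8.29 and 7.79 CPM at 0.5 µg/ml, and was 1.26-fold and 1.31-fold lower (adjusted p = 0.0312 and 0.00773). Its level at the 2 doses lay within the spread of the libraries (adjusted p = 0.662). The Sox12 call at the low dose was lost without control replicate 1 (adjusted p = 0.173) and without either library of that dose (0.134 and 0.0555), and the call at the high dose without control replicate 1 (0.0618) or replicate 2 of that dose (0.0505). Sox4 made up 92.0% of SoxC TPM in control and 77.9% at 0.5 µg/ml, and the sum fell from 35.8 ± 4.19 to 18.3 ± 2.53 and 9.35 ± 0.0707 TPM (SD, n = 2).

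Sox11, the SoxC gene of developing neurons, had 0 and 2 counts in control, 8 and 1 counts at 0.1 µg/ml and 11 and 16 counts at 0.5 µg/ml. It was higher at 0.5 µg/ml than in control (adjusted p = 0.00434, edgeR), with a ratio of CPM of 14.0 (95% counting interval 3.52 to 122), which did not pass in limma on log2(TPM + 1) or log2(TPM + 0.1) (adjusted p = 0.37 and 0.119). Between the doses the Sox11 rise (log2 fold change 1.91, adjusted p = 0.0282) was lost without replicate 2 of the low dose (0.141) or either library of the high dose (0.0807 and 0.155). Sox18, a SoxF gene of blood and lymph vessel lining, had 6 and 5 counts in control, 26 and 10 counts at 0.1 µg/ml and 12 and 26 counts at 0.5 µg/ml. Sox18 was 3.50-fold higher at 0.5 µg/ml than in control (log2 fold change 1.81 ± 0.51 SE, adjusted p = 0.0107), a call lost without control replicate 2 (0.0616) or replicate 2 of the high dose (0.131). Its SoxF relative Sox7 had 1 and 1 counts in control, 3 and 2 counts at 0.1 µg/ml and 8 and 4 counts at 0.5 µg/ml and was not tested, and Sox17, known from definitive endoderm, had no count in any library. Beside these vessel genes, the 7 fixed endothelial markers summed to 0.12 to 0.20 TPM in control, 0.53 TPM at 0.1 µg/ml and 0.89 to 1.18 TPM at 0.5 µg/ml. That sum followed Tek, and 4 of the 7 (Cdh5, Cldn5, Emcn and Erg) had no count in any library.

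The FoxA genes, which bind closed chromatin and are needed in the mouse intestine for secretory cell types, did not move together. Foxa2 stood at 7.03 and 5.92 CPM in control, 3.45 and 4.55 CPM at 0.1 µg/ml and 1.74 and 1.82 CPM at 0.5 µg/ml. It was 1.63-fold lower at the low dose (log2 fold change -0.71 ± 0.15 SE, adjusted p = 0.00633) and 3.63-fold lower at the high dose (-1.86 ± 0.17, adjusted p = 7.54e-06), and the low-dose call was lost without replicate 1 of that dose (0.0521). Foxa3 stood at 13.9 and 15.2 CPM in control, 8.25 and 10.3 CPM at 0.1 µg/ml and 5.04 and 4.99 CPM at 0.5 µg/ml, in 3 separate steps. It fell 1.57-fold and 2.89-fold (log2 fold change -0.65, adjusted p = 0.00155, and -1.53 ± 0.12 SE, adjusted p = 2.05e-06).

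Foxa1 at the low dose overlapped control: it stood at 48.7 and 39.7 CPM in control and 41.1 and 45.0 CPM at 0.1 µg/ml (adjusted p = 0.764). At 0.5 µg/ml it stood at 59.7 and 54.4 CPM, 1.29-fold higher than control (log2 fold change 0.37 ± 0.09 SE, adjusted p = 0.00508), a call lost without replicate 1 of that dose (adjusted p = 0.0645). Foxa1 made up 56.2% of the summed FoxA TPM in control, 66.8% at 0.1 µg/ml and 83.9% at 0.5 µg/ml. The FoxA sum was 30.3 ± 1.75 TPM in control, 24.4 ± 2.61 at 0.1 µg/ml and 24.7 ± 0.877 at 0.5 µg/ml (SD, n = 2).

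The 2 abundant FoxP genes, which encode repressors that act together in lung and gut development, moved in opposite directions. Foxp4 stood at 144 and 137 CPM in control, 118 and 120 CPM at 0.1 µg/ml and 102 and 94.8 CPM at 0.5 µg/ml. It was 1.18-fold lower at the low dose (log2 fold change -0.24, adjusted p = 0.00424) and 1.43-fold lower at the high dose (-0.52 ± 0.05 SE, adjusted p = 8.5e-06). Foxp1 stood at 47.4 and 45.9 CPM in control, 63.4 and 62.0 CPM at 0.1 µg/ml and 103 CPM in each library at 0.5 µg/ml. Its rise was 1.34-fold at the low dose (log2 fold change 0.43, adjusted p = 6.15e-05) and 2.20-fold at the high dose (1.14 ± 0.04 SE, adjusted p = 1.14e-08). For each gene the 3 groups were fully apart.

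In TPM, Foxp4 made up 74.0% of the FoxP sum in control and 48.5% at 0.5 µg/ml, and Foxp1 25.9% and 51.4%. The sum itself was 72.0 ± 2.43 TPM in control, 68.9 ± 0.276 at 0.1 µg/ml and 72.8 ± 2.18 at 0.5 µg/ml (SD, n = 2). Foxp3, the factor of regulatory T cells, stood at 0.16 to 0.344 CPM over the 6 libraries and passed in no comparison (adjusted p = 0.777, 0.681 and 0.949). Its exons overlap those of Ccdc22, so its few reads are uncertain. Foxp2, known from the nervous system, had 0 to 2 counts in each library.

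**Figure D3:**
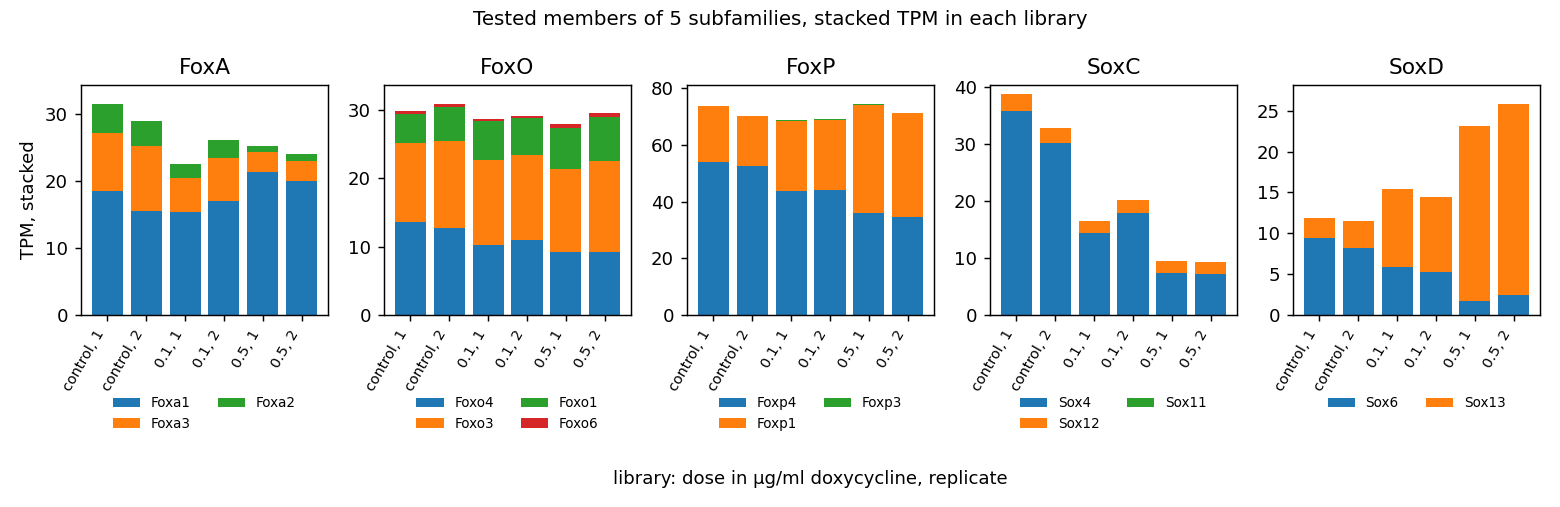
TPM of the tested members of 5 subfamilies, stacked in each of the 6 libraries (dose in µg/ml and replicate on the x axis). The FoxP and FoxO stacks keep their height while Foxp1 takes more of the first, the SoxC stack shrinks with Sox4, and the SoxD stack grows with Sox13 while Sox6 shrinks.

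The FoxO genes, whose proteins leave the nucleus when insulin signalling activates Akt, were led by Foxo1, Foxo3 and Foxo4, with Foxo6 far lower. Foxo1 stood at 32.2 and 35.6 CPM in control, 43.5 and 41.1 CPM at 0.1 µg/ml and 48.1 and 49.6 CPM at 0.5 µg/ml. It rose at the low dose (log2 fold change 0.32, adjusted p = 0.00248) and was 1.44-fold higher at the high dose (0.53 ± 0.06 SE, adjusted p = 2.92e-05). Between the doses the Foxo1 rise (log2 fold change 0.21, adjusted p = 0.0123) was lost without replicate 2 of the low dose (0.0865) or of the high dose (0.0857). On the TPM scale neither Foxo1 rise at the low dose nor that between the doses passed (limma on log2(TPM + 1), adjusted p = 0.117 and 0.307). Foxo4 stood at 35.3 and 31.7 CPM in control, 26.8 and 28.2 CPM at 0.1 µg/ml and 25.2 and 24.6 CPM at 0.5 µg/ml, and was 1.34-fold lower at the high dose (-0.43 ± 0.06 SE, adjusted p = 2.09e-04). Its fall at the low dose was -0.29 on the log2 scale (adjusted p = 0.00631).

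Foxo3 stood at 63.1 and 68.7 CPM in control, 70.3 and 69.1 CPM at 0.1 µg/ml and 73.1 and 76.4 CPM at 0.5 µg/ml. Its 1.13-fold rise at 0.5 µg/ml (adjusted p = 0.0112) was lost without control replicate 1 (0.0845), without replicate 2 of that dose (0.133) and with upper quartile scaling (0.154). Foxo6 stood at 1.05 and 0.838 CPM in control, 0.717 and 0.693 CPM at 0.1 µg/ml and 1.19 and 1.5 CPM at 0.5 µg/ml. It passed only between the doses, where it was 1.91-fold higher at 0.5 µg/ml (log2 fold change 0.93 ± 0.24 SE, adjusted p = 0.00754), and not without replicate 2 of the high dose (0.0785). The FoxO sum was 30.4 ± 0.651 TPM in control, 29.0 ± 0.346 at 0.1 µg/ml and 28.8 ± 1.18 at 0.5 µg/ml (SD, n = 2).

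Of 14 genes fixed as FoxO targets, all were tested, and 2 were higher and 7 lower at 0.1 µg/ml, and 4 higher and 9 lower at 0.5 µg/ml. These were 64.3% and 92.9% of the list, where 34.6% and 67.5% of all tested genes passed. The list's median log2 fold change was -0.17 at the low dose and -0.44 at the high dose, beside 0.02 and -0.00 over all tested genes. Txnip, which restrains glucose uptake, had the largest fall, with a log2 fold change of -1.69 at the high dose (adjusted p = 1.97e-07). Klf15, a factor of fasting metabolism, had the largest rise, with a log2 fold change of 1.46 (adjusted p = 0.0342) from a low level of 0.100 ± 0.0273 CPM in control (SD, n = 2).

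Foxq1, needed in the mouse for mucin expression in stomach surface cells and for normal hair, stood at 28.9 and 21.4 CPM in control, 19.3 and 18.9 CPM at 0.1 µg/ml and 11.9 and 8.29 CPM at 0.5 µg/ml. It fell 2.51-fold at the high dose (log2 fold change -1.33 ± 0.17 SE, adjusted p = 6.96e-05). At the low dose the difference was -0.40 (adjusted p = 0.0803), which passed without control replicate 2 (0.0102) or either high-dose library (0.0413 and 0.0406).

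Both tested FoxJ genes rose at both doses. Foxj2 stood at 14.4 and 14.8 CPM in control, 19.1 and 19.2 CPM at 0.1 µg/ml and 28.8 and 28.2 CPM at 0.5 µg/ml, 1.96-fold above control at the high dose (log2 fold change 0.97 ± 0.06 SE, adjusted p = 2.65e-07). Foxj3, known in the mouse from muscle, stood at 39.2 and 42.7 CPM in control, 46.4 and 45.8 CPM at 0.1 µg/ml and 50.7 and 49.9 CPM at 0.5 µg/ml, a 1.23-fold rise at the high dose (adjusted p = 6.11e-04). The Foxj3 call at the low dose (adjusted p = 0.0299) was lost when any of 5 libraries was left out, with adjusted p from 0.0749 to 0.262, control replicate 2 being the exception. On the TPM scale, the rises of Foxj2 at the low dose and of Foxj3 at both doses did not pass (limma on log2(TPM + 1), adjusted p = 0.0639 for Foxj2, and 0.184 and 0.193 for Foxj3).

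Foxk1 and Foxk2 encode paralogous repressors of autophagy genes, and only Foxk1 passed the test. Foxk1 stood at 62.2 and 60.8 CPM in control, 61.1 and 60.5 CPM at 0.1 µg/ml and 79.2 and 80.1 CPM at 0.5 µg/ml, so that the low dose overlapped control (adjusted p = 0.791) and the high dose 1.29-fold above it (log2 fold change 0.37 ± 0.04 SE, adjusted p = 2.92e-05). Foxk2 stood at 68.2 to 74.5 CPM over the 6 libraries, with the high dose overlapping each of the other groups, and passed in no comparison (adjusted p = 0.237, 0.516 and 0.479). With upper quartile scaling the difference of Foxk2 from control at the high dose passed, as a lower level (adjusted p = 0.0357), and the difference between the 2 genes was not tested.

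Foxn3, a repressor of cell cycle genes, stood at 25.7 and 29.4 CPM in control, 30.5 and 32.1 CPM at 0.1 µg/ml and 34.5 and 35.1 CPM at 0.5 µg/ml, 1.26-fold above control at the high dose (adjusted p = 0.00148). Its low-dose difference (log2 fold change 0.18, adjusted p = 0.0628) passed without control replicate 2 (0.0158), and that between the doses (0.15, adjusted p = 0.0716) without either control library (0.0198 and 0.0343). Foxn2 stood at 49.6 to 53.9 CPM over the 6 libraries and passed in no comparison (adjusted p = 0.597, 0.303 and 0.115).

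A further group of Fox genes was near the limit of detection in control and higher after induction. Foxe1, needed for thyroid development, had no count in control, 9 and 6 counts at 0.1 µg/ml and 21 and 26 counts at 0.5 µg/ml. Against 3 counts per control library, Foxe1 was at least 2.04-fold higher at the low dose and at least 8.12-fold higher at the high dose (adjusted p = 0.0054 and 5.37e-05, edgeR), and it rose 3.92-fold between the doses (adjusted p = 0.00217). As for Sox1, the low-dose call of Foxe1 did not pass with limma on log2(TPM + 1) (adjusted p = 0.254). Foxn1, the factor of thymic epithelium that is lost in nude mice, had 2 and 0 counts in control, 3 and 0 counts at 0.1 µg/ml and 20 and 14 counts at 0.5 µg/ml. It was higher at 0.5 µg/ml than in control, with a CPM ratio of 17.7 (95% counting interval 4.53 to 152; adjusted p = 0.0025), and than at 0.1 µg/ml, with a ratio of 14.4 (4.52 to 73.2; adjusted p = 0.00266). Foxd3, which maintains pluripotent cells and neural crest, had 4 and 2 counts in control, 7 and 6 counts at 0.1 µg/ml and 10 and 13 counts at 0.5 µg/ml. Its 3.87-fold rise at 0.5 µg/ml (log2 fold change 1.95 ± 0.54 SE, adjusted p = 0.00919) was lost without control replicate 2 (0.0956) or replicate 2 of the high dose (0.0634).

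Foxc1 and Foxc2 are factors of mesoderm and of vessels. Foxc2 had 1 and 0 counts in control, 6 and 5 counts at 0.1 µg/ml and 25 and 31 counts at 0.5 µg/ml, with a CPM ratio to control of 58.2 at the high dose (95% counting interval 10.02 to 2338; adjusted p = 4.12e-05, edgeR). Foxc2 at the low dose was 9.0 times control (1.31 to 388; adjusted p = 0.0382), and that call was lost whichever library was left out, with adjusted p from 0.0531 without control replicate 1 to 0.191 without control replicate 2. Foxc1 stood at 0.365 and 0.0997 CPM in control, 0.386 and 0.347 CPM at 0.1 µg/ml and 0.596 and 0.518 CPM at 0.5 µg/ml. Its rise at 0.5 µg/ml (log2 fold change 1.25 ± 0.47 SE, adjusted p = 0.0389) was lost when any library but control replicate 1 was left out, with adjusted p from 0.0548 to 0.247. Without control replicate 2, which held 5 counts against 18 in the other control library, the Foxc1 log2 fold change was 0.57.

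**Figure D4:**
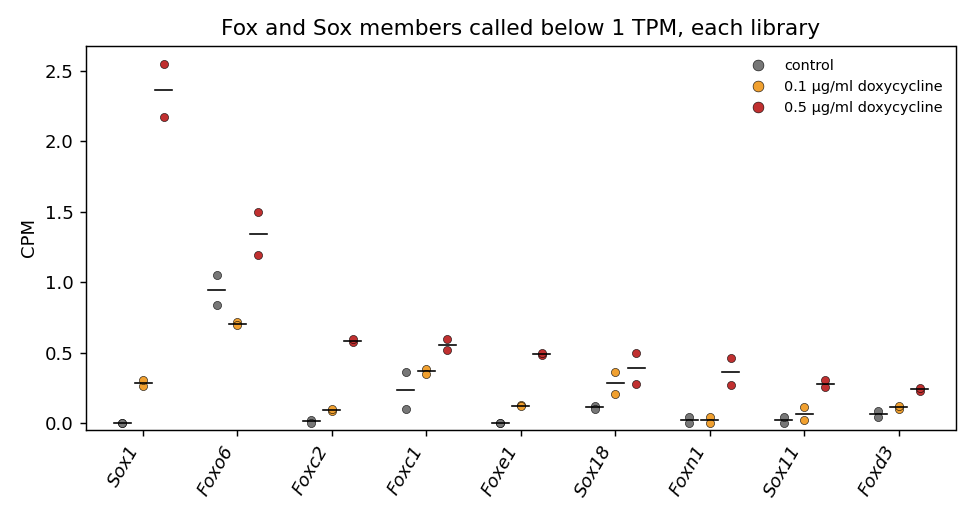
CPM in each library (points) with group means (short lines) for the 9 Fox and Sox members that were called in a comparison but stayed under 1 TPM in every group. Sox1 climbs from 0 in control to between 2.18 and 2.55 CPM at 0.5 µg/ml, and the other 8 lie at or under 1.5 CPM in every library.

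Summed markers of other cell types were low beside the epithelial sum, though not beside these genes. The 7 fixed fibroblast markers summed to 0.26 to 0.40 TPM in control, 0.26 to 0.27 at 0.1 µg/ml and 1.21 to 1.59 at 0.5 µg/ml. Dcn moved with that sum, with no count in control, 5 and 1 counts at 0.1 µg/ml and 65 and 108 counts at 0.5 µg/ml, whereas Col1a2 had no count at 0.5 µg/ml and Twist2 none in any library. The 4 smooth muscle markers summed to 0.02 to 0.09 TPM in control, 0.07 to 0.16 at 0.1 µg/ml and 0.24 to 0.29 at 0.5 µg/ml. The 7 immune markers summed to 0.76 to 0.99, 0.67 to 0.70 and 0.49 to 0.58 TPM in the same order. The 7 enteric glia and neuron markers summed to 4.54 to 4.70 TPM in control, 3.11 to 3.43 at 0.1 µg/ml and 9.76 to 12.8 at 0.5 µg/ml. At 0.5 µg/ml 1 of the 4 tested was higher than control and 3 were lower, with a median log2 fold change of -2.02. These were 100% of the 4, where 67.5% of all tested genes passed. The one that rose was Tubb3 (3.59, adjusted p = 4.69e-08), which moved with the sum, and Elavl4 and Ret were among those that fell. At the same dose 1 of the 2 tested fibroblast markers was higher than control and 1 lower. The 2 tested immune markers likewise split into 1 higher and 1 lower. The 1 tested smooth muscle marker was higher. The part of all these markers in the members' results was not tested.

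The Hox genes were the lowest of the 3 families, and the 3 of 7 tested that passed in a comparison fell. The called share of the 7 was 14.3% at 0.1 µg/ml, 42.9% at 0.5 µg/ml and 28.6% between the doses. These lay under the 34.6%, 67.5% and 58.9% of all tested genes. All counts on the 39 Hox genes came to 238 and 236 in control, 280 and 271 counts at 0.1 µg/ml and 89 and 175 counts at 0.5 µg/ml. The HoxA cluster held 216 and 220 of these counts in control, 271 and 261 counts at 0.1 µg/ml and 82 and 163 counts at 0.5 µg/ml. All 11 HoxA genes were detected and 7 of them tested, whereas 8 of 10 HoxB, 2 of 9 HoxC and 5 of 9 HoxD genes were detected and none was tested. HoxB had 3 to 15 counts in a library, HoxC 0 to 3 and HoxD 2 to 10.

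Among the 3′ genes of the HoxA cluster, known from the hindbrain and pharyngeal region, Hoxa3 had the clearest fall. Hoxa3 stood at 0.952 and 0.838 CPM in control, 0.414 and 0.387 CPM at 0.1 µg/ml and 0.252 and 0.173 CPM at 0.5 µg/ml (47, 42, 30, 19, 11 and 9 counts). It was 2.22-fold lower at the low dose (log2 fold change -1.15 ± 0.28 SE, adjusted p = 0.0103) and 4.23-fold lower at the high dose (-2.08 ± 0.32, adjusted p = 2.69e-04). The low-dose call of Hoxa3 was lost without control replicate 1 (0.0605) or replicate 1 of that dose (0.058), and its fall between the doses (-0.93, adjusted p = 0.0443) was lost whichever library was left out (0.058 to 0.253). Hoxa3 overlaps the opposite-strand genes Hoxaas2, Hoxaas3, 5730596B20Rik and Gm29430 in GENCODE M21, each with at most 12 counts in a library. As Hoxa3 had 11 and 9 counts at 0.5 µg/ml, the split of reads between it and these genes is uncertain. Hoxaas3 also overlaps Hoxa7, and Gm29430 overlaps Hoxa4.

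Hoxa2 had 14 and 13 counts in control, 11 and 4 counts at 0.1 µg/ml and 1 and 3 counts at 0.5 µg/ml. It was 6.22-fold lower at 0.5 µg/ml (log2 fold change -2.64 ± 0.61 SE, adjusted p = 0.00338), while the low-dose difference of -1.14 did not pass (adjusted p = 0.0861). Hoxa5, known from lung and gut mesenchyme, had 11 and 14 counts in control, 23 and 12 counts at 0.1 µg/ml and 3 and 6 counts at 0.5 µg/ml. Its 2.64-fold fall at 0.5 µg/ml (log2 fold change -1.40 ± 0.49 SE, adjusted p = 0.0286) was lost without either control library (0.0565 and 0.131) or either library of that dose (0.151 and 0.0581). Between the doses Hoxa5 was 3.00-fold lower at 0.5 µg/ml (adjusted p = 0.0152), and not without replicate 1 of the low dose (0.12) or of the high dose (0.112). Hoxa4 passed in no comparison, with a log2 fold change of -0.81 at the high dose (adjusted p = 0.157).

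Hoxa7, Hoxa9 and Hoxa10, from the middle and 5′ part of the cluster, were the most counted Hox genes at each dose and passed in no comparison with the count filter and all 6 libraries. Hoxa9 stood at 1.05 and 1.08 CPM in control, 1.23 and 1.98 CPM at 0.1 µg/ml and 0.641 and 1.23 CPM at 0.5 µg/ml, with control and high dose overlapping. Hoxa7 stood at 0.871 and 0.798 CPM, 0.676 and 1.14 CPM, and 0.344 and 0.633 CPM in the same order, and Hoxa10 at 0.790 and 0.798, 0.690 and 1.18, and 0.344 and 0.614 CPM. In all 3 genes replicate 2 of each dose was above replicate 1, and the libraries of a dose lay far apart beside the close control pair. At 0.5 µg/ml the adjusted p was 0.0998 for Hoxa7, 0.687 for Hoxa9 and 0.119 for Hoxa10. The Hoxa7 difference at 0.5 µg/ml passed without replicate 2 of that dose (0.0463). Between the doses, all 3 genes passed without replicate 1 of the low dose (0.0294 for Hoxa7, 0.033 for Hoxa9 and 0.0201 for Hoxa10) or replicate 2 of the high dose (0.0437, 0.0249 and 0.04). With no count filter, all 3 passed between the doses (0.0137 for Hoxa7, 0.00642 for Hoxa9 and 0.0066 for Hoxa10), and Hoxa7 and Hoxa10 passed at 0.5 µg/ml against control (0.0293 and 0.0448).

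**Figure D5:**
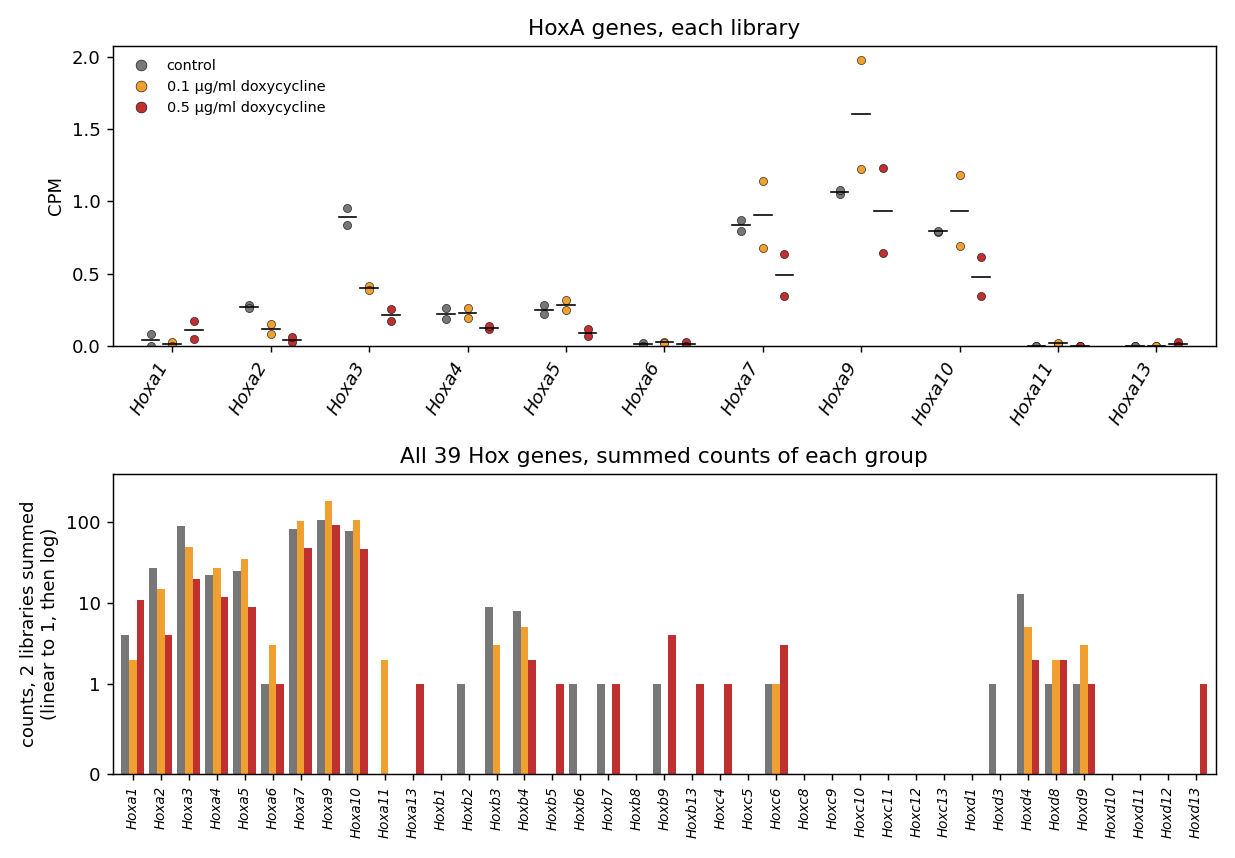
Upper panel: CPM of the 11 HoxA genes in each library (points) with group means (short lines). Lower panel: counts of all 39 Hox genes summed over the 2 libraries of each group, on an axis that is linear to 1 and logarithmic above; the HoxA genes carry most counts, and 13 genes are empty.

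Hox proteins bind DNA with partners of the Pbx, Meis and Pknox families, and 7 of 9 such genes were tested. At 0.1 µg/ml 1 was higher and 2 lower, and at 0.5 µg/ml 3 were higher and 3 lower, with a median log2 fold change of 0.09 and -0.39. The called genes were 42.9% and 85.7% of the 7, beside 34.6% and 67.5% of all tested genes, whose median was 0.02 and -0.00. Meis2 had the largest fall at that dose (-1.33, adjusted p = 4.07e-04) and Pbx4 the largest rise (1.31, adjusted p = 0.00716). Of 6 genes of the ParaHox family and its Cdx relatives, the 3 with counts (Cdx1, Cdx2 and Pdx1) were tested. All 3 were lower at 0.5 µg/ml, with a median of -1.56, and 2 of them were lower at 0.1 µg/ml. These were 66.7% of the 3 at 0.1 µg/ml and 100% at 0.5 µg/ml, beside 34.6% and 67.5% of all tested genes. Cdx2, which sets intestinal identity, had the largest of these falls at 0.5 µg/ml (-1.60, adjusted p = 1.23e-09), while Cdx4, Gsx1 and Gsx2 had no count. Of 13 noncoding genes of the Hox clusters, 11 were in the tables, 5 had a count and none was tested.

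FoxA proteins work beside other endoderm factors, among them those of the Hnf and Gata families. A list of 12 endoderm genes was fixed, and it also held Eomes and Cer1. Of these 12 genes, 8 were tested. At 0.1 µg/ml 1 was higher and 3 lower, and at 0.5 µg/ml 1 was higher and 6 lower. The median log2 fold change of the 8 was -0.05 at the low dose and -0.69 at the high dose. The called genes were 50% and 87.5% of the 8, beside 34.6% and 67.5% of all tested genes, whose median was 0.02 and -0.00. Hnf4g, a nuclear receptor of enterocytes, had the largest fall at 0.5 µg/ml, from 89.5 ± 1.68 to 33.8 ± 3.16 CPM (SD, n = 2; log2 fold change -1.41, adjusted p = 4.35e-07). Eomes, a T-box factor of early endoderm, was the gene that rose (0.98, adjusted p = 6.23e-04). Foxj1, which switches on motile cilium genes, had 3 to 10 counts in each library and was not tested. Of 12 motile cilium genes, 10 were in the tables and 6 tested, and 2 were higher at both doses and 1 lower at 0.5 µg/ml, with a median of 0.33 and 0.27. The called genes were 33.3% of the 6 at the low dose and 50% at the high dose, beside 34.6% and 67.5% of all tested genes. Dnah5, a dynein heavy chain, stood at 0.221 ± 0.0308 CPM in control and 8.82 ± 0.587 at 0.5 µg/ml (log2 fold change 5.30, adjusted p = 7.03e-09), while Ccno, needed to make the many basal bodies of such cells, fell (-1.36, adjusted p = 0.0109).

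The remaining 62 members, which were not tested, held 30 to 69 counts together in each library. Of these, 38 had a count somewhere, the highest being 13 for Foxd1 at 0.5 µg/ml replicate 2, and 26 of the 38 had at most 3 counts in every library. The other 24 had none, and they were 13 Hox genes, 10 Fox genes and Sox17. Among the 10 were Foxl1, the factor of the mesenchymal cells under the intestinal epithelium, Foxi1, known from ionocytes, and Foxs1. Foxf1, also of gut mesenchyme, had 0 to 2 counts in each library, and Foxf2 had none in control or at 0.1 µg/ml and 2 and 4 counts at 0.5 µg/ml. Sox10, known from enteric glia, had 1 count in 2 of the 6 libraries. The 13 Hox genes without a count were 7 of the HoxC cluster, 4 of HoxD, and Hoxb1 and Hoxb8.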

How the data were processed

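Poly-A RNA was made into directional MGI libraries and read as 100 bp pairs, per the labels' protocols. Per the submitters' processing notes, the tools were STAR 2.7.3a, RSEM 1.3.3, Trim Galore and FastQC, and the builds GRCm39 and mm10. Which build, annotation and strand setting the tables used is not stated in these sources. The authors deposited expected counts, which are estimated and need not be whole, and TPM. RSEM divides reads shared between similar genes, so such genes have uncertain counts.

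Symbols were taken for 52083 of the 55416 IDs from a table of gene names. Expected counts were rounded, filtered with filterByExpr by group, scaled by TMM and fitted over all 6 libraries in edgeR 4.0.16 (R 4.3.3) with 3 residual degrees of freedom. Benjamini-Hochberg adjustment ran over the 16975 tested genes, and a call needs an adjusted p under 0.05. Standard errors are the log2 fold change divided by the root of F, and ratio intervals are exact at 95%. The procedure was tested on simulated data with 200 of 15782 genes changed, far fewer than were called here. It recovered 91% of the 200, and 68% of those changed by 0.5 on the log2 scale. Of its calls, 7.61% fell on unchanged genes. An exact test of 2 against 2 libraries cannot go below p = 0.333, so single sums have no test. Replicates of each group differed by more than sampling noise (chi-square per degree of freedom 8.24 to 9.35).

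Values of every library are given for members that passed in a comparison and reached 1 TPM in a group and for the 3 of highest mean TPM in each family. Members that passed below 1 TPM are given in CPM or counts, and from each related list the gene of largest change past the test in each direction is named. Members named without a call were named after their values were seen. The members and lists were chosen with earlier results of these data known. The 13 alternatives were DESeq2 1.42.0, upper quartile scaling, no count filter, limma 3.58.1 on log2(TPM + 1) and log2(TPM + 0.1), a fit of the 2 compared groups, the replicate number as a block, and each library left out in turn.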

Additional observations from a re-analysis of the deposited data

How the results depend on the processing

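Among the calls of members, 8 of 17 at 0.1 µg/ml, 20 of 29 at 0.5 µg/ml and 16 of 21 between the doses passed under all 13 alternatives, and no call changed direction. At 0.1 µg/ml, limma on log2(TPM + 1) called 3 members higher and 3756 genes in all, and limma on log2(TPM + 0.1) called 5 and 3884, against 9 and 5881 with edgeR. Leaving out a library gave 5 to 9 members lower and 3800 to 5248 genes called at 0.1 µg/ml, the 5 without replicate 1 of that dose. With upper quartile scaling, 50.4% of the calls at 0.1 µg/ml were higher, against 60% with TMM. The share was 43.7% against 50.9% at 0.5 µg/ml and 44.7% against 50.6% between the doses, so that more genes were called lower than higher in those comparisons. Deviations from the group mean showed little correlation between libraries of the same replicate number (-0.039, 0.077 and 0.010 over 2 pairs a comparison). With 2 libraries a group, this cannot settle whether the replicates were paired. With the number as a block, 9 members were higher and 9 lower at 0.1 µg/ml, 18 and 11 at 0.5 µg/ml and 12 and 9 between the doses, and 5265, 11162 and 9607 genes were called in all. Under the block Foxc2 at 0.1 µg/ml, and Hoxa3 and Sox11 between the doses, did not pass (adjusted p = 0.066, 0.0616 and 0.0508, edgeR), while Foxn3 and Foxq1 at 0.1 µg/ml (0.0492 and 0.0305) and Hoxa9 and Hoxa10 between the doses (0.0358 and 0.0313) did. DESeq2 lost Foxc2, Foxj3, Hoxa3 and Sox12 at 0.1 µg/ml, Foxc1, Foxd3, Hoxa5 and Sox18 at 0.5 µg/ml, and Hoxa3, Hoxa5 and Sox11 between the doses. Both TPM scales also lost Foxc2 and Sox12 at 0.1 µg/ml, Foxc1 and Foxo3 at 0.5 µg/ml and Hoxa3 between the doses. Of 1434 values of the 37 tested members compared, 29 changed sign, none past the test in either fit, and the cause was not tested.

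These uncalled log2 differences were as follows under the alternatives that turned them. With upper quartile scaling Foxk2 was -0.0091 and Foxp3 -0.0134 between the doses, Foxn2 -0.0335 at 0.5 µg/ml and Hoxa4 -0.0194 at 0.1 µg/ml. Between the doses on the TPM scales Foxk2 was -0.0469 (TPM + 1) and -0.0494 (TPM + 0.1) and Foxj3 -0.0359 and -0.0381. Hoxa9 at 0.5 µg/ml was 0.2022 and 0.3774 on those scales, and Foxn2 -0.0256 and -0.0274. Leaving out a library gave ranges that crossed 0, at 0.1 µg/ml of -0.2035 to 0.096 for Foxa1, -0.006 to 1.8453 for Foxc1, -3.1505 to 3.5109 for Foxn1, -0.2906 to 0.8129 for Foxp3, -0.2236 to 0.2745 for Hoxa4, -0.0508 to 0.331 for Hoxa5, -0.3245 to 0.438 for Hoxa7 and -0.2241 to 0.5599 for Hoxa10. At 0.5 µg/ml the range was -0.7512 to 0.1856 for Hoxa9 and -0.2595 to 0.8654 for Foxp3, and between the doses -0.1169 to 0.2691 for Foxp3 and -0.0795 to 0.949 for Sox18. Depth limits the members under 1 TPM, of which 12 were called. Most of these had few counts, while Sox1 reached 133 and Foxo6 78 counts in a library.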
